A study of Mus musculus with 4 samples.

Results

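The tricarboxylic acid (TCA) cycle, the entry of pyruvate into it and succinate dehydrogenase were examined in hematopoietic stem cells (HSCs) with and without *Id2*. The 36 genes were defined by a list of symbols, and all 36 had a row among the 19354 genes of the deposited matrix. HSCs had been sorted from bone marrow as LSK FLT3-CD48-CD150+ cells, 2 weeks after polyinosinic:polycytidylic acid (pIpC), from mice 8 to 16 weeks old. The control group was *Mx1-Cre* *Id2*+/+ (WT, 14 mice) and the other group was *Mx1-Cre* *Id2* Fl/Fl (ID2KO, 15 mice), called *Id2*Δ/Δ after deletion. Cells of each genotype were pooled over mice and collected in 2 experiments, and RNA-Seq gave 2 libraries per genotype. Both groups carried the *Mx1-Cre* transgene, whose promoter responds to interferon and is active outside blood cells as well, and both received pIpC, so a shared response to either cannot be seen in this comparison. The labels do not say whether the 2 libraries of a genotype came from separate mice, and p-values then measure only the spread between these libraries, which may be technical.

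Pyruvate made by glycolysis enters the mitochondrion through the mitochondrial pyruvate carrier and is turned into acetyl-CoA by the pyruvate dehydrogenase complex, which kinases switch off and phosphatases switch on. The TCA cycle then oxidizes acetyl-CoA and passes electrons to the respiratory chain, and one of its enzymes, succinate dehydrogenase, is at the same time complex II of that chain. Quiescent HSCs are known for reliance on glycolysis and for low mitochondrial respiration, and HIF-1α, which the study ties to ID2, induces kinases of pyruvate dehydrogenase in low oxygen. The comparison addresses whether the transcripts of this route differ when *Id2* is lost.

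The libraries matched their labels. *Id2*, the deleted gene, was read 93 and 98 times in *Id2*+/+ and 0 times in either *Id2*Δ/Δ library. Depths estimated from the values were 14200000 and 15700000 reads for *Id2*+/+ and 17800000 and 18800000 reads for *Id2*Δ/Δ. All 7 HSC markers listed were measured, and their summed level was 4350 and 4240 counts-per-million (CPM) in *Id2*+/+ against 2960 and 3490 CPM in *Id2*Δ/Δ. Summed levels of markers of other blood cells were from 140 to 276 CPM for 8 neutrophil genes, at no more than 67.3 CPM for 7 erythroid genes, from 454 to 598 CPM for 6 megakaryocyte genes, from 37.6 to 49.1 CPM for 3 monocyte genes, from 33.6 to 51.0 CPM for 2 B cell genes and from 40.5 to 56.7 CPM for *Nkg7* of the T and NK cell list. The neutrophil sum was 276 CPM in *Id2*+/+ and 258 CPM in *Id2*Δ/Δ replicate 1, and 170 and 140 CPM in replicate 2. In both genotypes the monocyte sum and *Nkg7* were also higher in replicate 1, and the megakaryocyte sum in replicate 2. The erythroid and B cell sums did not follow replicate number. *Cd79a*, *Ms4a1*, *Ebf1*, *Pax5*, *Cd3d*, *Cd3e* and *Cd3g* were not among the genes listed. The megakaryocyte genes had their lowest sum in an *Id2*+/+ library and their highest in an *Id2*Δ/Δ library, and the part of these levels in the results below was not tested.

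None of the 36 genes differed between genotypes at an adjusted p-value under 0.05 (limma, Benjamini-Hochberg over all 15895 genes tested), and 0% of all genes tested did. *Id2* itself, with a log2 fold change of -7.31, had an adjusted p-value of 0.910 in this limma fit, so that the absence of calls does not show that levels were equal. Their smallest adjusted p-value from limma was 0.910. None of the 36 had an unadjusted limma p-value under 0.05 either, against 742 genes or 4.67% of all genes tested, and the smallest was 0.0986, for *Mdh2*. The mean was higher in *Id2*Δ/Δ HSCs for 24 genes and lower for 12, where 51.7% of all genes tested were higher. The median log2 fold change of the 36 was 0.083, beside 0.011 over all genes tested. Point estimates ran from a fold of 0.88 for *Aco1*, a cytosolic aconitase, to 1.2 for *Mpc2*, a subunit of the pyruvate carrier. In bulk RNA, fewer cells of a type and less RNA per cell cannot be told apart, for these and all values that follow.

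In 9 of the 36 genes each *Id2*Δ/Δ library exceeded each control, against 19% of all genes tested, and in 3 each was below each control, against 15.8%. The 9 were *Mpc2*, *Pdha1*, *Idh3b*, *Idh3g*, *Suclg1*, *Sdhb*, *Mdh1*, *Mdh2* and *Me2*, and the 3 were *Dlst*, *Acly* and *Glud1*. The other 24 genes overlapped between genotypes. For 28 of the 36 the difference between genotype means was smaller than the larger of the gaps between replicates. The same count was not made over all genes tested, so it is not read as a trait of these genes. With 2 libraries against 2, an exact permutation test cannot give a p-value under 0.33, so separation of the libraries has no test of its own.

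The intervals around these differences were narrow for most of the 36 genes. The 95% interval of the fold change from limma lay inside 1.5-fold in both directions for 30 of them, against 36.6% of all genes tested and 51.0% of the 11078 tested genes within the same range of levels. Levels within that range were not matched, and the median was 103 CPM for the 36 genes beside 27.4 CPM over all genes tested. The 6 whose intervals reached past 1.5-fold were *Mpc2*, *Pdp1*, *Pdpr*, *Pcx*, *Aco1* and *Sdhaf1*. Most of the genes were abundant. Mean levels ran from 7.6 CPM for *Pcx* to 464 CPM for *Sdha*, with a median of 103 CPM, and 32 of the 36 were above the median level of the genes tested. The lowest number of reads recovered for any of them was 87, for *Pcx* in *Id2*+/+ replicate 2.

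**Figure D1:**
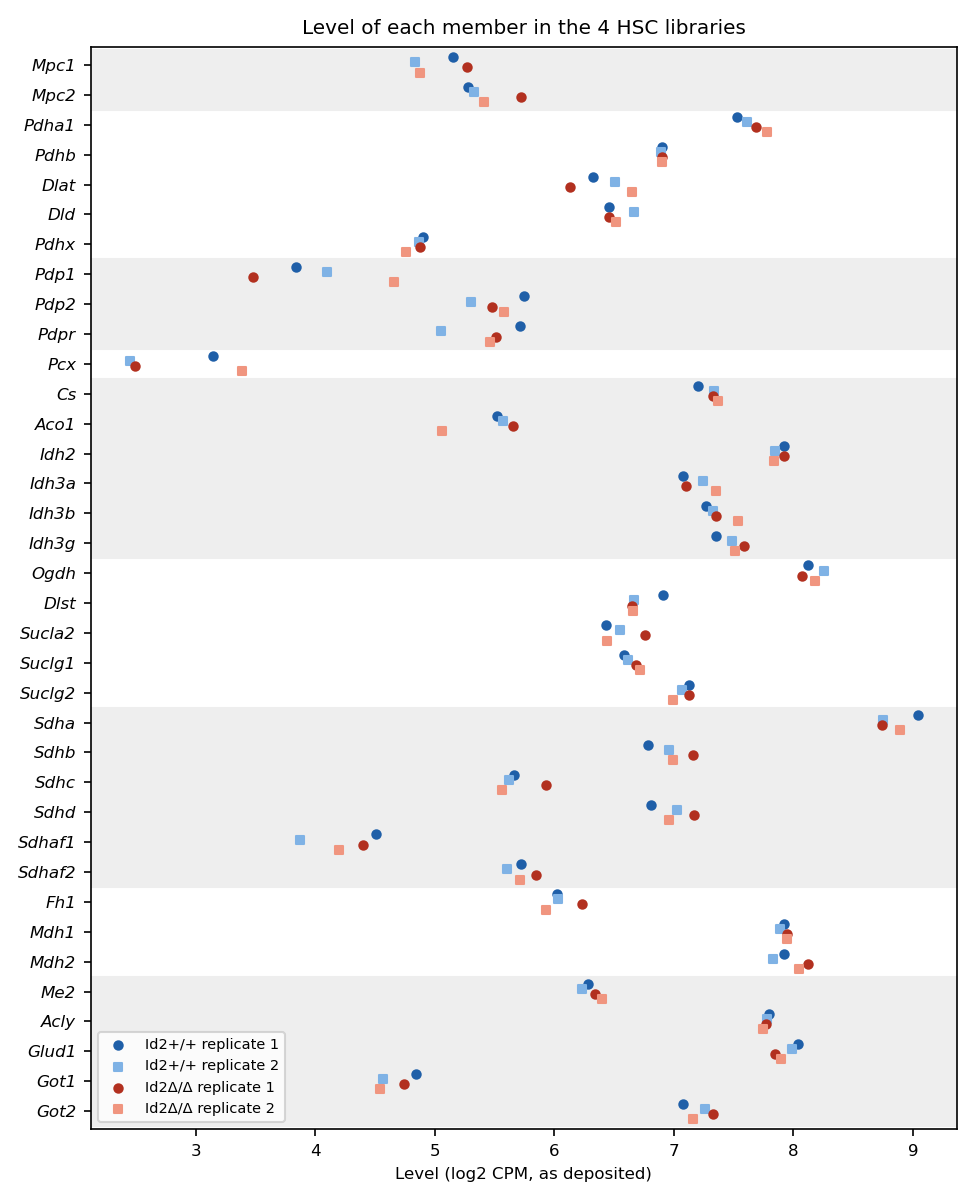
Level of each of the 36 genes (log2 CPM as deposited, x axis) in the 2 Id2+/+ and 2 Id2Δ/Δ HSC libraries, in order of role, with 1 point per library. The points of a gene lie close together beside the distance between genes, from Pcx at the left to Sdha at the right, and the widest spread is that of Pdp1, from 3.48 to 4.66.

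Promoter sequences are shown for genes with the largest separated differences in each direction, because a shared binding motif would be the first thing to look for among genes of one pathway. Windows from 250 bases before to 50 bases after the transcription start (RefSeq, GRCm38.p6) were found for 32 of the 36 genes. Where the GENCODE M21 gene began further upstream than the RefSeq start, only the bases before both starts are printed, except for a site of 30 bases around a motif match of *Sdhb* that lies inside the GENCODE gene. By that rule no bases of *Mpc2* are printed. The bases printed are in lower case, with motif matches in capitals. *Sdhb* encodes the iron-sulfur subunit of succinate dehydrogenase, *Mdh2* the mitochondrial malate dehydrogenase and *Glud1* glutamate dehydrogenase. The *Sdhb* stretch is chr4:140961021-140961202, the *Sdhb* site is chr4:140961206-140961235, the *Mdh2* stretch is chr5:135778399-135778479 and the *Glud1* stretch is chr14:34310477-34310726, all on the plus strand.
Sdhb: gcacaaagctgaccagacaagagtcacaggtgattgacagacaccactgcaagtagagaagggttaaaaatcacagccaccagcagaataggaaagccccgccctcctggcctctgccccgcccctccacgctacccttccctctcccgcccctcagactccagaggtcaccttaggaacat
Sdhb site: aagcccagtggGCATGCGCcctacgggccg
Mdh2: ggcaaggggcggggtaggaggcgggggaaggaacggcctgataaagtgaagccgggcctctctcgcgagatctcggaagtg
Glud1: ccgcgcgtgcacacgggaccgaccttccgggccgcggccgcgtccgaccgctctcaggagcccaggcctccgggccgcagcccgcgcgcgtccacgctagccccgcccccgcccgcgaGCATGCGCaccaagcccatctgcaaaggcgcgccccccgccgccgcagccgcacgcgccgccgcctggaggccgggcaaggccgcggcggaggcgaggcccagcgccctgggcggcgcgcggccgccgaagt
The capitals mark a match to the NRF1 motif (GCGCATGC, which reads GCATGCGC on the other strand). The match began 54 bases before the RefSeq start of *Sdhb* and 132 bases before that of *Glud1*. *Sdhb* was the higher and *Glud1* the lower in *Id2*Δ/Δ HSCs, and neither difference passed the test. The *Sdhb* match lay before the RefSeq start but inside the gene as GENCODE M21 places it.

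NRF1, a factor known for nuclear genes of mitochondrial proteins, had its letters in the windows of 3 of the 32 genes (*Ogdh*, *Sdhb* and *Glud1*), or 9.38%, against 2.71% of all 32851 windows and 5.91% of the tested genes with a window. The ERR motif AAGGTCA, searched on both strands like all motifs here and read by estrogen-related receptors, was found in 3 of 32, which were *Ogdh*, *Sdhd* and *Got1*, against 4.72% of all windows and 4.02% of tested genes. The ETS motif CCGGAAGT was in that of *Dlst* alone, against 3.89% of all windows and 9.02% of tested genes, and the YY1 motif AAGATGGC in that of *Idh3g* alone, against 2.75% and 5.24%. The hypoxia response core was searched only as ACGTG, one form of the letters that HIF-1α reads, which the E-box of other factors also holds. Other forms of the core were not searched. ACGTG was in windows of 10 of 32 genes, or 31.2%, against 19.6% of all windows and 29.2% of tested genes. The 10 genes were *Pdhb*, *Pdp2*, *Pdpr*, *Pcx*, *Idh3g*, *Ogdh*, *Sdha*, *Sdhaf1*, *Mdh1* and *Acly*, and their log2 fold changes ran from -0.08 for *Sdha* to 0.15 for *Pcx*. Such matches describe letters only. The 32 genes had 39 windows, and a gene counted if any of its windows matched, as for the tested genes. Shares of all windows count single windows, so they are not on the same footing as the shares of genes. The median GC content of the windows was 61.7%, beside 60.3% for tested genes and 52.7% for all windows.

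The mitochondrial pyruvate carrier is a pair of proteins, MPC1 and MPC2, that work as one transporter. *Mpc2* measured 5.28 and 5.33 log2 CPM in *Id2*+/+ and 5.72 and 5.41 log2 CPM in *Id2*Δ/Δ libraries. Both *Id2*Δ/Δ values were above both controls, and replicate 1 stood furthest out. The log2 fold change of *Mpc2* was 0.26 ± 0.17 (SE, n = 2 per genotype), with a 95% interval from -0.15 to 0.67, and without *Id2*Δ/Δ replicate 1 it was 0.11. *Mpc1* measured 5.15 and 4.83 log2 CPM in *Id2*+/+ and 5.27 and 4.88 log2 CPM in *Id2*Δ/Δ libraries, so its genotypes overlapped. Its log2 fold change was 0.08, with an interval from -0.42 to 0.58. Exons of *Mpc1* share 480 bases with a transcript on the other strand, and strand use by the authors is not given in the sources used here. Per kilobase of transcript, *Mpc2* over *Mpc1* was 1.03 and 1.32 in *Id2*+/+ and 1.28 and 1.35 in *Id2*Δ/Δ, which overlapped.

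The pyruvate dehydrogenase complex joins an E1 enzyme of PDHA1 and PDHB, the E2 core DLAT, the shared E3 enzyme DLD and the binding protein PDHX. *Pdha1*, the subunit that the kinases phosphorylate, measured 7.53 and 7.61 log2 CPM in *Id2*+/+ and 7.69 and 7.78 log2 CPM in *Id2*Δ/Δ libraries. These 4 values did not overlap, and the log2 fold change of *Pdha1* was 0.17 ± 0.11 (SE), with an interval from -0.10 to 0.43. *Pdha1* shares 603 exonic bases with *Map3k15* on the other strand. Its partner *Pdhb* was the steadiest of the complex, at 6.90 and 6.89 log2 CPM in *Id2*+/+ and 6.90 in both *Id2*Δ/Δ libraries, with an interval from -0.27 to 0.28. Per kilobase, *Pdha1* over *Pdhb* was 0.824 and 0.876 in *Id2*+/+ and 0.920 and 0.983 in *Id2*Δ/Δ. That ratio was higher in both *Id2*Δ/Δ libraries, one of 3 among 16 ratios computed that did not overlap, all 3 of them higher. For single genes, 19% of all genes tested were higher in both. The numerators of the 3, *Pdha1*, *Idh3b* and *Mdh2*, were themselves higher in both, so these ratios are not a separate result.

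*Dlat*, *Dld* and *Pdhx* had log2 fold changes of -0.03, -0.07 and -0.06, each with overlapping genotypes. *Dlat* ran from 6.13 to 6.65 log2 CPM, and both ends of that range were *Id2*Δ/Δ libraries. Within the complex, mean levels in *Id2*+/+ were 78.7 CPM per kilobase for *Pdhb*, 66.9 for *Pdha1*, 37.3 for *Dld*, 21.2 for *Dlat* and 11.8 for *Pdhx*. The 2 E1 genes were thus the most abundant and *Pdhx* the least in every library.

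The phosphatases that reactivate pyruvate dehydrogenase were scarcer and noisier. *Pdp1*, a catalytic subunit, was read 203 and 266 times in *Id2*+/+ and 195 and 482 times in *Id2*Δ/Δ, and the *Id2*Δ/Δ pair held both the lowest and the highest value. Its log2 fold change of 0.10 had an interval from -0.79 to 1.00 and ran from -0.49 to 0.70 when 1 library was left out. *Pdp2*, the other catalytic subunit, and *Pdpr*, the regulatory subunit, had log2 fold changes of 0.00 and 0.11. Here the wide gap was between the controls, with *Pdpr* at 5.71 and 5.05 log2 CPM in *Id2*+/+ against 5.51 and 5.46 in *Id2*Δ/Δ. *Pcx*, which encodes pyruvate carboxylase, the enzyme that refills the cycle with oxaloacetate, was read 128 and 87 times in *Id2*+/+ and 101 and 192 times in *Id2*Δ/Δ. A difference of the size seen for *Pcx*, 0.15 on the log2 scale, was not detectable between these libraries, whose interval ran from -0.83 to 1.13.

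Kinases that oppose the phosphatases were taken from a list of 31 further genes of the pathway, of which 25 had a row. *Pdk1*, the kinase with the most reads though not the highest per kilobase, measured 8.11 and 7.74 log2 CPM in *Id2*+/+ and 7.89 and 7.80 in *Id2*Δ/Δ libraries. *Pdk3* was higher in both *Id2*Δ/Δ libraries and *Pdk2* lower, by log2 differences of 0.13 and -0.23. The catalytic subunits *Pdp1* and *Pdp2*, without *Pdpr*, were summed as phosphatases. Per kilobase, the summed kinases exceeded that sum 9.72 and 9.99 times in *Id2*+/+ and 11.5 and 7.79 times in *Id2*Δ/Δ libraries. The *Id2*Δ/Δ pair lay on either side of the controls, and *Ldha*, which diverts pyruvate to lactate, over *Pdha1* overlapped too, at 6.40 and 6.95 against 6.57 and 6.03.

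**Figure D2:**
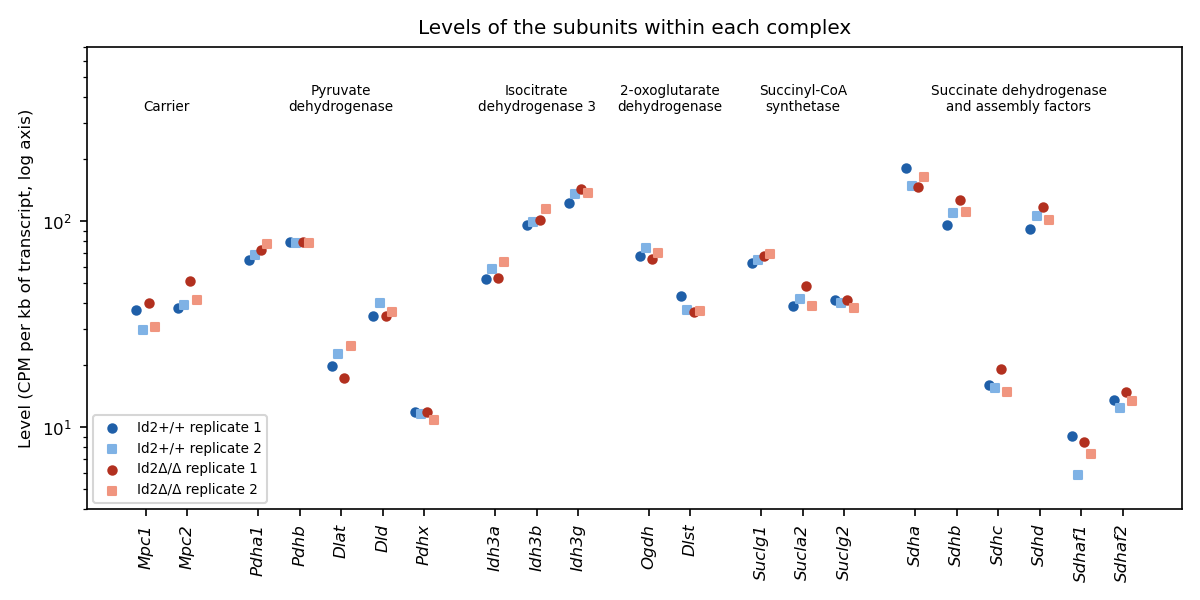
Level of subunit genes within the pyruvate carrier and 5 enzyme complexes (CPM per kilobase of transcript, log axis), with 1 point per library. Sdha, at 147 to 182, is the highest, Sdhc and the assembly factors lie far below Sdha, Sdhb and Sdhd, and the points of Mpc1 and Mpc2 overlap.

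From citrate to 2-oxoglutarate, *Cs*, which encodes citrate synthase, the entry enzyme, had a log2 fold change of 0.09 with overlapping genotypes. *Idh3a*, *Idh3b* and *Idh3g* encode the NAD-dependent isocitrate dehydrogenase of the cycle. *Idh3b* measured 7.27 and 7.33 log2 CPM in *Id2*+/+ and 7.35 and 7.54 log2 CPM in *Id2*Δ/Δ libraries. *Idh3g* measured 7.35 and 7.49 log2 CPM in *Id2*+/+ and 7.59 and 7.51 log2 CPM in *Id2*Δ/Δ libraries. Neither gene overlapped between genotypes, though the nearest libraries of the genotypes were only 0.02 and 0.03 apart. Their log2 fold changes were 0.15 ± 0.12 (SE) and 0.13 ± 0.12 (SE), with intervals from -0.14 to 0.43 and from -0.14 to 0.41. *Idh3a*, the catalytic subunit, overlapped at a log2 fold change of 0.06, and *Idh3b* over *Idh3a* per kilobase was 1.82 and 1.7 in *Id2*+/+ and 1.89 and 1.82 in *Id2*Δ/Δ, without overlap before rounding. *Idh2*, the NADP-dependent mitochondrial enzyme, had the smallest difference of the 36, at 7.92 and 7.85 log2 CPM in *Id2*+/+ and 7.92 and 7.84 in *Id2*Δ/Δ. The lowest estimate of all, that of *Aco1* at -0.18, rested on *Id2*Δ/Δ replicate 2, at 5.06 log2 CPM beside 5.52 to 5.65 in the other 3 libraries, and without it was 0.11.

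From 2-oxoglutarate to succinate, *Ogdh* encodes the E1 enzyme of the 2-oxoglutarate dehydrogenase complex and *Dlst* its E2 core. *Dlst* measured 6.91 and 6.67 log2 CPM in *Id2*+/+ and 6.65 and 6.66 log2 CPM in *Id2*Δ/Δ libraries. It was the lower in both *Id2*Δ/Δ libraries, but 3 of the 4 values lay within 0.02 of each other and *Id2*+/+ replicate 1 alone stood above. Its log2 fold change of -0.13, with an interval from -0.45 to 0.19, was -0.02 without that library. *Ogdh* overlapped, at a log2 fold change of -0.06. Succinyl-CoA synthetase pairs SUCLG1 with either SUCLA2, which makes ATP, or SUCLG2, which makes GTP. *Suclg1*, the shared subunit, measured 6.58 and 6.62 log2 CPM in *Id2*+/+ and 6.68 and 6.72 log2 CPM in *Id2*Δ/Δ libraries. The replicates were 0.04 apart in each genotype, and the log2 fold change of *Suclg1* was 0.10, with an interval from -0.19 to 0.39. *Sucla2* and *Suclg2* overlapped at 0.11 and -0.04, and *Sucla2* over *Suclg2* per kilobase stayed near equality, from 0.933 to 1.17 over the 4 libraries.

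Succinate dehydrogenase has 4 subunits. SDHA holds the flavin and oxidizes succinate, SDHB carries the electrons over iron-sulfur clusters, and SDHC and SDHD anchor the enzyme in the membrane. *Sdha*, the highest of the 36 in CPM, measured 9.04 and 8.75 log2 CPM in *Id2*+/+ and 8.74 and 8.89 log2 CPM in *Id2*Δ/Δ libraries. The genotypes overlapped, and the log2 fold change was -0.08 with an interval from -0.38 to 0.22. *Sdhb* measured 6.78 and 6.96 log2 CPM in *Id2*+/+ and 7.16 and 6.99 log2 CPM in *Id2*Δ/Δ libraries. It was the only one of the 4 subunits whose genotypes did not overlap, by 0.03 between the nearest libraries, with a log2 fold change of 0.21 ± 0.13 (SE) and an interval from -0.11 to 0.52. *Sdhc* measured 5.66 and 5.62 log2 CPM in *Id2*+/+ and 5.93 and 5.56 log2 CPM in *Id2*Δ/Δ libraries, and its log2 fold change was 0.10. *Sdhd* measured 6.81 and 7.03 log2 CPM in *Id2*+/+ and 7.17 and 6.96 log2 CPM in *Id2*Δ/Δ libraries, and its log2 fold change was 0.14. For *Sdhb*, *Sdhc* and *Sdhd*, *Id2*Δ/Δ replicate 1 was the highest of the 4 libraries and replicate 2 was within 0.07 of *Id2*+/+ replicate 2. The median of the 4 subunits was 0.123 with *Id2*Δ/Δ replicate 1 and 0.015 when that library was left out.

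Subunits of succinate dehydrogenase did not share one transcript level. Per kilobase and averaged over *Id2*+/+ libraries, *Sdha* was at 165 CPM, *Sdhb* at 103, *Sdhd* at 98.8 and *Sdhc* at 15.7. *Sdhb* over *Sdhc* was 6.03 and 7.0 in *Id2*+/+ and 6.53 and 7.49 in *Id2*Δ/Δ libraries. The size of that gap depends on the transcript length taken, 3171 bases for *Sdhc*, against 1142 for *Sdhb* and 1231 for *Sdhd*, while without division by length *Sdhc* was still the lowest, at 49.9 CPM in *Id2*+/+ against 117 for *Sdhb* and 122 for *Sdhd*. The assembly factors *Sdhaf1*, which helps place iron-sulfur clusters in SDHB, and *Sdhaf2*, which attaches the flavin to SDHA, were at 7.49 and 12.9 CPM per kilobase. *Sdhaf1* measured 4.51 and 3.87 log2 CPM in *Id2*+/+ and 4.40 and 4.20 log2 CPM in *Id2*Δ/Δ libraries. *Sdhaf2* measured 5.72 and 5.60 log2 CPM in *Id2*+/+ and 5.85 and 5.71 log2 CPM in *Id2*Δ/Δ libraries. Both overlapped, at log2 fold changes of 0.11 and 0.12, and 1733 exonic bases of *Sdhaf1* are shared with a gene on the other strand. The other assembly factors, *Sdhaf3* and *Sdhaf4*, from the list of further genes, were higher in both *Id2*Δ/Δ libraries, with log2 fold changes of 0.36 and 0.33 and intervals from -0.21 to 0.92 and from -0.09 to 0.75.

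From fumarate to oxaloacetate, *Fh1* encodes fumarase and *Mdh2* and *Mdh1* the mitochondrial and the cytosolic malate dehydrogenase, which together shuttle reducing equivalents. *Mdh2* measured 7.92 and 7.83 log2 CPM in *Id2*+/+ and 8.12 and 8.05 log2 CPM in *Id2*Δ/Δ libraries. Of the 36 genes it had the smallest limma p-value, a log2 fold change of 0.21 ± 0.11 (SE) and an interval from -0.05 to 0.46, and it remained between 0.16 and 0.25 when any 1 library was left out. *Mdh1* measured 7.92 and 7.89 log2 CPM in *Id2*+/+ and 7.95 in both *Id2*Δ/Δ libraries, so its groups were apart by little, at a log2 fold change of 0.04. *Mdh2* over *Mdh1* per kilobase was 1.46 and 1.40 in *Id2*+/+ and 1.64 and 1.56 in *Id2*Δ/Δ libraries, without overlap. *Fh1* overlapped at a log2 fold change of 0.05.

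Side routes feed the cycle or draw on it. *Me2*, a mitochondrial malic enzyme that turns malate into pyruvate, measured 6.28 and 6.23 log2 CPM in *Id2*+/+ and 6.34 and 6.40 log2 CPM in *Id2*Δ/Δ libraries. *Glud1*, which turns glutamate into 2-oxoglutarate, measured 8.04 and 7.99 log2 CPM in *Id2*+/+ and 7.85 and 7.90 log2 CPM in *Id2*Δ/Δ libraries. *Acly*, which splits exported citrate into cytosolic acetyl-CoA, measured 7.80 and 7.78 log2 CPM in *Id2*+/+ and 7.77 and 7.75 log2 CPM in *Id2*Δ/Δ libraries. Thus *Me2* was higher and the other two were lower in both *Id2*Δ/Δ libraries, with log2 fold changes of 0.12, -0.14 and -0.03, intervals from -0.19 to 0.43, from -0.39 to 0.11 and from -0.28 to 0.22, and no adjusted limma p-value under 0.910. With the length correction described below, *Acly* was at 0.02 and no longer lower. The aspartate aminotransferases overlapped, the cytosolic *Got1* at -0.06 and the mitochondrial *Got2* at 0.08.

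**Figure D3:**
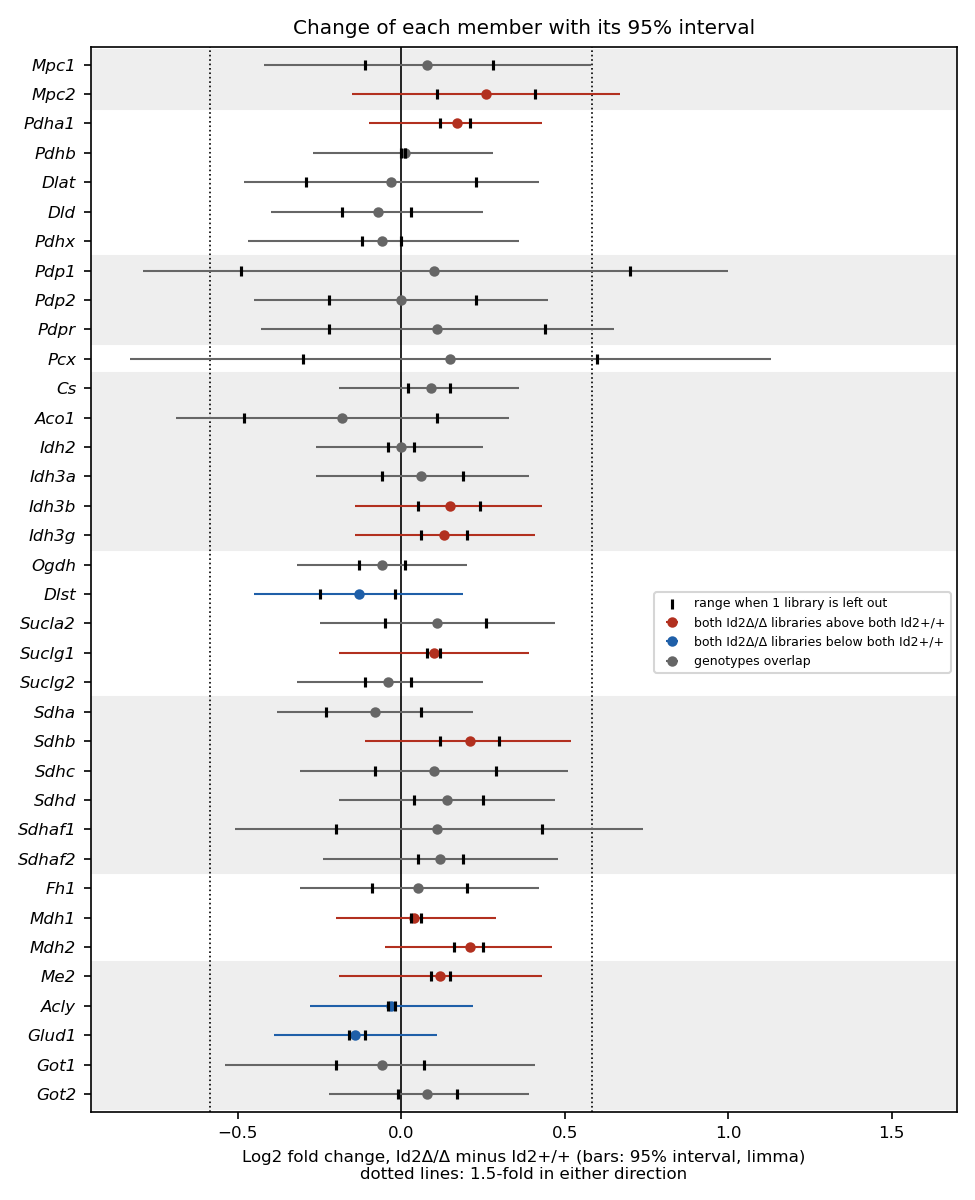
Log2 fold change of each of the 36 genes (Id2Δ/Δ minus Id2+/+, x axis) with its 95% interval from limma, and ticks for the lowest and highest value when 1 library is left out. Every interval includes 0, 30 lie between the dotted lines at 1.5-fold, and the widest are those of Pdp1 and Pcx.

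Of the 25 further genes of the pathway, means were higher without *Id2* for 12 and lower for 13, and the median difference was -0.01 on the log2 scale. None passed at an adjusted p-value under 0.05 (limma). *Pdk3*, *Sdhaf3*, *Sdhaf4*, *Me1* and *Slc25a1* were higher in both *Id2*Δ/Δ libraries, and 5 were lower in both, among them *Pdk2*, *Idh1*, *Dhtkd1* and *Nadk2*. These counts of 5 and 5 among 25 were near the 19% and 15.8% of all genes tested. *Me1*, the cytosolic malic enzyme and counterpart of *Me2*, was the 1 gene of the 25 with an unadjusted limma p-value under 0.05. Over all genes tested, 4.67% had one, so 1 among 25 was near that share. The adjusted p-value of *Me1* was 0.910 (limma). It was read 36 and 59 times in *Id2*+/+ and 147 and 112 times in *Id2*Δ/Δ, a log2 fold change of 1.27 with an interval from 0.32 to 2.22. *Slc25a1*, the carrier that exports citrate, had a log2 fold change of 0.25 with an interval from -0.11 to 0.61.

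The 36 genes were set beside the rest of the respiratory chain as a description. The 75 genes for complexes I, III and IV and ATP synthase were taken by symbol pattern, which can include genes that are not subunits. Of these 75, 68 had the higher mean without *Id2*, against 51.7% of all genes tested, and their median difference was 0.18 on the log2 scale. In 38 each *Id2*Δ/Δ library exceeded each control and in 0 each was below, against 19% and 15.8% of all genes tested. The medians were 0.164 for complex I, 0.117 for complex III, 0.221 for complex IV and 0.18 for ATP synthase, against 0.083 for the 36 genes and 0.123 for the 4 subunits of complex II. For 16 genes of glycolysis the median was 0.025, with 10 of them higher. None of these genes passed at an adjusted p-value under 0.05 (limma), and the difference between the lists was not tested.

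These medians moved with 1 library. Relative to each gene's mean over the 4 libraries, the median deviation of the 75 genes was -0.101 and -0.067 in *Id2*+/+ and 0.192 and -0.018 in *Id2*Δ/Δ, on the log2 scale. For the 36 genes it was -0.032 and -0.026 in *Id2*+/+ and 0.035 and -0.002 in *Id2*Δ/Δ. In both lists *Id2*Δ/Δ replicate 1 was the highest and replicate 2 lay nearer to the controls. When that replicate 1 was left out, the median was 0.058 for the 75 genes and 0.027 for the 36. Over all genes tested it was then 0.021.

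**Figure D4:**
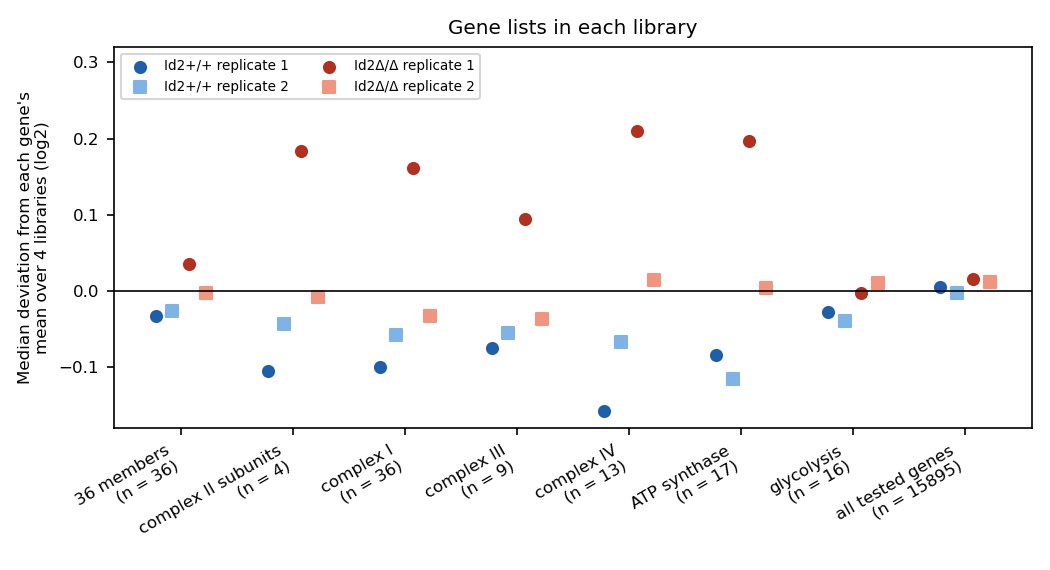
Median deviation of each gene list from the gene means over the 4 libraries (log2, y axis), with 1 point per library and the number of genes tested below each list. Id2Δ/Δ replicate 1 is the highest point for the complex II subunits, the other complexes and ATP synthase, at 0.095 to 0.21, while the 36 genes stay between -0.032 and 0.035.

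Transcript length moved with the differences too. The 10 of the 36 genes with transcripts under 2000 bases had a median log2 fold change of 0.14, and 9 were higher, while the 26 longer ones had a median of 0.05, and 15 were higher. Over all genes tested the medians were 0.09 and -0.03. The 75 respiratory chain genes had a median length of 865 bases and the 36 genes one of 2610. With a length correction fitted over all genes, the median was 0.085 for the 36 genes and 0.099 for the 75. Of these, 25 of 36 and 66 of 75 were higher. Over all genes tested the corrected median was 0.033, and 8851 of 15895 were higher. The gap between the 2 lists was thus smaller after correction.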

How the data were processed

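RNA-Seq values of sorted HSCs, 2 *Id2*+/+ and 2 *Id2*Δ/Δ libraries, were used as deposited. The authors deposited log2 CPM values that were quantile-normalized between the libraries, as read from the values, whose sums taken back from log2 were 999980 to 999996. Quantile normalization gives every library the same distribution, so a shift shared by most genes is removed. The submitters' processing notes name CASAVA 1.8.4, Trimmomatic 0.30, TopHat2 2.0.8, RSEM, STAR and the builds mm9 and NCBIM37, without roles, and strand use is not given in the sources used here. Reads below 32 CPM, and the depths, were recovered from the ranks of distinct values.

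The 15895 genes averaging 1 CPM or more entered a limma fit (limma 3.58.1, R 4.3.3, lmFit, eBayes with an intensity trend, genotype only, two-sided), with Benjamini-Hochberg adjustment over all of them. Levels per kilobase and the length correction (a spline with 5 degrees of freedom) used the longest coding transcript of GENCODE M21. Coordinates are those of GRCm38, and none came from the deposited values. Promoter windows came from RefSeq. The members and lists were chosen with earlier results of these data known. By rule, every member was accounted for by role, with the value in every library for succinate dehydrogenase, the pyruvate carrier and each member whose genotypes did not overlap. Alternatives were log2(CPM + 1), other filters on low values, median-ratio rescaling, no intensity trend, a replicate block, the length correction, single replicate numbers and leaving out each library. The authors' counting of overlapping genes is not known. The values of 1 gene of the list of further pathway genes are not reported here.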

Additional observations from a re-analysis of the deposited data

How the results depend on the processing

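The median log2 fold change of the 36 genes remained above 0 in every alternative run. It lay between 0.07 and 0.085 under the other scalings, filters and fits with 4 libraries, between 0.027 and 0.057 when 1 library was left out, and was 0.026 from replicate number 1 alone and 0.036 from number 2 alone. Over all genes tested the median was above 0 as well, at 0.033 with the length correction. It was 0.001 to 0.021 when 1 library was left out, and 0.007 and 0.018 from replicate numbers 1 and 2 alone. The number of the 36 lower in both *Id2*Δ/Δ libraries, 3 as reported, was 5 after median-ratio rescaling, 1 after the length correction and 1 with the replicate block and length correction together, while the number higher in both was 9 in each. Shares over all genes tested were not computed under these settings, so the counts have no background there. The same sign was not kept by *Pdhb* (-0.008) and *Pdp2* (-0.01) under median-ratio rescaling, or by *Pdhb* (-0.022), *Dlat* (0.02) and *Acly* (0.025) under the length correction with or without the block, and the cause was not tested.

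Leaving out 1 library turned the sign of 19 of the 36 genes. Sign changes were not counted over all genes tested, so 19 is not read as a trait of these genes. For the 12 whose genotypes did not overlap, the sign could not turn by construction. For the 19, the log2 fold changes then ran from -0.113 to 0.281 for *Mpc1*, from -0.289 to 0.233 for *Dlat*, from -0.176 to 0.03 for *Dld*, from -0.49 to 0.695 for *Pdp1*, from -0.221 to 0.227 for *Pdp2*, from -0.224 to 0.44 for *Pdpr*, from -0.299 to 0.601 for *Pcx*, from -0.482 to 0.114 for *Aco1*, from -0.042 to 0.041 for *Idh2*, from -0.058 to 0.187 for *Idh3a*, from -0.129 to 0.007 for *Ogdh*, from -0.052 to 0.265 for *Sucla2*, from -0.107 to 0.031 for *Suclg2*, from -0.227 to 0.064 for *Sdha*, from -0.083 to 0.289 for *Sdhc*, from -0.204 to 0.434 for *Sdhaf1*, from -0.094 to 0.203 for *Fh1*, from -0.2 to 0.074 for *Got1* and from -0.007 to 0.17 for *Got2*.

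No adjusted p-value was under 0.05 in the comparison as reported (limma), 742 genes had an unadjusted p-value under 0.05, and with the replicate block 1 gene, none of the 36, passed. Libraries of one replicate number deviated from their group means with a correlation of 0.0592 over all genes tested and 0.144 over genes of at least 32 CPM, and with 2 pairs the numbers were not taken to pair the samples. With 2 libraries per genotype the precision was limited, and the intervals of *Pcx* and *Pdp1* reached past 1.5-fold in both directions.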
